A study of Mus musculus with 6 samples.

Results

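The genes described here encode 10 subunits of Polycomb repressive complex 1 (PRC1): the PCGF proteins Bmi1, Pcgf2, Pcgf5 and Pcgf6, the E3 ligases Ring1 and Rnf2, the chromobox proteins Cbx2, Cbx7 and Cbx8, and the polyhomeotic protein Phc1. They were taken by gene symbol from the 24063 symbols of the deposited count files, with the transcript of greatest summed exon length standing for each symbol, and all 10 were among the 14145 genes that passed the filter on low counts. Transcripts were measured by RNA sequencing in LSK cells, the lineage-negative Sca-1+ c-Kit+ fraction of bone marrow that contains the blood stem cells and early progenitors, from 3 Asxl2-/- and 3 wild-type control samples of the C57BL/6 strain. By the study's methods the knockout cells were CD45.2+ cells of Mx1-cre Asxl2 fl/fl mice and the controls CD45.2+ cells of Mx1-cre mice. Both groups had received pIpC, a double-stranded RNA that switches on the interferon-responsive Mx1 promoter and with it the Cre recombinase, and both therefore share the Cre transgene and the exposure to interferon. The Mx1 promoter is not restricted to LSK cells, so the loss of Asxl2 need not be confined to them. Whether the sequenced cells came from primary mice or from transplant recipients is not stated. The age of the animals is not given in the labels.

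PRC1 places a single ubiquitin on histone H2A, a mark found at repressed genes. Each complex holds a RING ligase (Ring1 or Rnf2) bound to a PCGF protein, and the PCGF protein decides which complex forms. Canonical complexes contain Bmi1 or Pcgf2 together with a polyhomeotic protein and a CBX protein, whose chromodomain reads the trimethyl-lysine mark laid down by PRC2. Variant complexes are built around Pcgf1, Pcgf3, Pcgf5 or Pcgf6 and carry Rybp or Yaf2 in place of the CBX protein. In blood, Bmi1 is known as a factor that adult stem cells need for self-renewal. ASXL proteins are cofactors of BAP1, the enzyme that takes the ubiquitin off H2A again, which is the link between the deleted gene and the genes described here.

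Bmi1 and Pcgf2, the alternative PCGF partners of canonical PRC1, are the pair on which the results below turn, and the RefSeq sequences around their start sites are shown for that reason, from 250 bases before to 50 bases after the start site (build GRCm38.p6). Capitals mark the E-box CACGTG and the RUNX motif TGTGGT, both searched on both strands.
Pcgf2 (chr11:97699599-97699898, minus strand): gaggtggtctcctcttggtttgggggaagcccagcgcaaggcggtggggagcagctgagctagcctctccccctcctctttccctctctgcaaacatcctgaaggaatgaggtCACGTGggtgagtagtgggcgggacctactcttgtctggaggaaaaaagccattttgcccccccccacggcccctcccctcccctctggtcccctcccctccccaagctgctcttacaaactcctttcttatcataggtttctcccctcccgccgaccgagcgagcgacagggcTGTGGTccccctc
Bmi1 (chr2:18676768-18677067, plus strand): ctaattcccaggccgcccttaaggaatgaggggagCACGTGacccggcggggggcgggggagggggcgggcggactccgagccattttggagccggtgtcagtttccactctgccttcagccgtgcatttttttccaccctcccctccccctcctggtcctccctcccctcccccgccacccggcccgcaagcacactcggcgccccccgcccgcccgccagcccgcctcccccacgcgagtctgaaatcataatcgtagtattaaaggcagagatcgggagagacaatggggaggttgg
The E-box begins 137 bases before the start site of Pcgf2 and 215 bases before that of Bmi1. It was also present 98 bases before the start site of Cbx8. RefSeq promoters were available for 9 of the 10 subunits, 11 windows in all, and the E-box was in those 3 genes, against 7.15% of all 32851 promoters of the same length. The RUNX motif was found in Pcgf2, 37 bases after the start site, and in Pcgf6, 49 bases before it, against 16.8% of all promoters. The ETS motif CCGGAAG (8.86% of all promoters) and the TATA box TATAAA (13.6%) were in none of the 11 windows. The GC box GGGCGG (35.7%) was in every subunit with a window except Phc1. The CCAAT box (37.4%) was in Pcgf5, Cbx7 and Cbx8. These shares are per promoter, whereas Pcgf5 had several windows. The Pcgf2 window had 10 CpG dinucleotides and 61.7% G and C, and the Bmi1 window had 23 and 66.3%, where the medians over all promoters were 7 and 52.7%. The Pcgf2 start site shown lies 849 bases downstream of the 5' end of the Pcgf2 transcript that was counted, which has an earlier first exon. These matches describe the letters in the windows and are not evidence of binding.

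The counts assigned to genes totalled 25528540 to 29136012 in the 3 files that gave 1 count per transcript (gene-count files: Asxl2-/- replicates 1 and 3 and control replicate 2) and 53147729 to 55032075 in the 3 files that gave 1 count per exon (exon-count files: Asxl2-/- replicate 2 and control replicates 1 and 3). Exon counts were summed per transcript and can hold a spliced read more than once, so the kind of file entered the fit as a covariate, and values within each kind are given beside the pooled ones. The deletion was visible in the exon-count files. Exon 11 of Asxl2, which the study flanked with LoxP sites, held 28 counts in Asxl2-/- replicate 2 against 457 and 492 in control replicates 1 and 3, while the other exons remained. The c-Kit gene Kit ran from 280 to 431 CPM (counts scaled to the TMM-normalised library size). The Sca-1 gene Ly6a was at 52.6, 69.1 and 57.6 CPM in Asxl2-/- replicates 1, 2 and 3. It was at 40.5, 260 and 148 CPM in control replicates 1, 2 and 3 (log2 fold change -1.34, edgeR adjusted p = 0.187). The defining markers of the sort were thus present in every library, though Ly6a was highest in control replicates 2 and 3. Of 6 LSK markers only Slamf1 passed the threshold, as higher in Asxl2-/- cells. Xist was at 1070 to 2350 CPM in the Asxl2-/- libraries and at 13.0 to 61.3 CPM in the controls, and the Y-linked gene Ddx3y was at 0.0705 CPM or less in the former and at 83.0 to 101 CPM in the latter. Genotype and the sex of the cells' source therefore cannot be told apart in any comparison below. Summed over 8 B lymphoid marker genes, the level was 164 to 172 CPM in the Asxl2-/- libraries and 39.9 to 58.6 CPM in the controls, with 7 of the 8 genes past the threshold. Of 7 megakaryocyte markers 4 rose, and their sum was 315 to 820 CPM in the Asxl2-/- and 158 to 352 CPM in the control libraries. Over all genes tested, 2.34% passed the threshold in either direction and 2.04% as higher. At that share, the absence of calls in a list of 6 to 8 genes says little. None of 7 erythroid, 6 listed myeloid, 7 T and NK, 7 endothelial and stromal, 7 tested neural or 8 cell cycle markers passed the threshold, although the erythroid sum was 149 to 226 CPM against 301 to 482 CPM. In bulk RNA, a larger share of cells of one type and more RNA per cell cannot be told apart, and the part of these differences in the results below was not tested.

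The comparison of the genotypes addresses how transcripts of the complex that writes H2A ubiquitin differ between LSK cells with and without Asxl2. Pcgf2 was higher in Asxl2-/- LSK cells by 2.80-fold, and it was the only subunit of the 10 whose difference passed the threshold (edgeR quasi-likelihood test, Benjamini-Hochberg adjusted p under 0.05 over all 14145 genes). No subunit fell. Over all genes tested, 2.34% passed in either direction and 2.04% as higher in Asxl2-/- cells. At an unadjusted p under 0.05, Pcgf2, Rnf2 and Cbx2 were higher and no subunit was lower, where 15.0% of all genes were higher and 27.7% differed in either direction. The fold changes of 7 subunits were positive and those of 3 (Bmi1, Ring1, Pcgf6) negative, with a median of 0.25 on the log2 scale against 0.00052 for all genes. The median absolute log2 fold change was 0.29 for the subunits and 0.24 for all genes. DESeq2 called Pcgf2 and Rnf2, with 17.1% of all genes called, and limma-voom called Pcgf2, with 3.04% of all genes called. Libraries of the genotypes did not overlap within either kind of file for 7 subunits, higher in Asxl2-/- cells for Pcgf2, Pcgf5, Rnf2, Cbx2 and Cbx7 and lower for Bmi1 and Ring1. Such a separation was found for 25.4% of all genes in the higher and 23.3% in the lower direction, since each kind of file holds only 3 libraries.

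**Figure D1:**
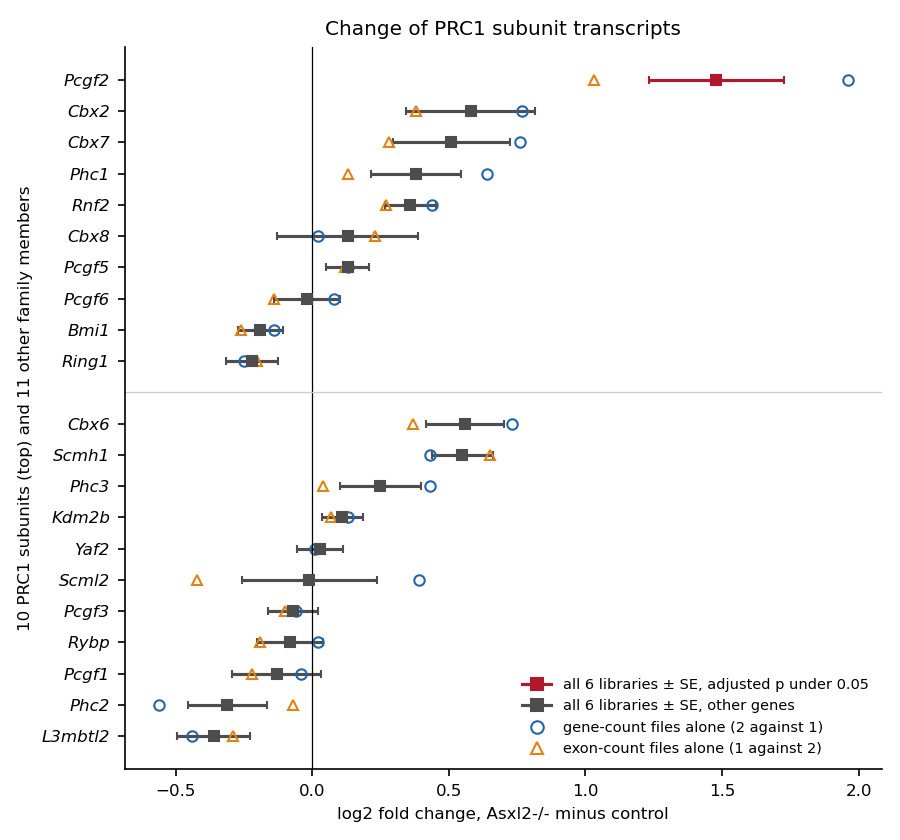
Log2 fold change (Asxl2-/- minus control, x axis) of the 10 PRC1 subunits and of 11 further family members, in 2 blocks ordered by size. Squares with bars are the fit over all 6 libraries ± SE, red where the adjusted p is under 0.05, and open symbols are the values within each kind of file. Pcgf2, at 1.48, lies farthest from 0, with 1.96 in the gene-count and 1.03 in the exon-count files.

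Pcgf2, also called Mel18, is the paralogue of Bmi1 and takes its place in canonical PRC1. The gene lies at chr11:97688823-97700497 on the minus strand of mm10, with 13 exons in the counted transcript. It was at 18.2, 17.8 and 17.2 CPM in Asxl2-/- replicates 1, 2 and 3 and at 9.38, 4.45 and 8.12 CPM in control replicates 1, 2 and 3. Every Asxl2-/- library was above every control, and the lowest value by far was that of control replicate 2, the only control with a gene-count file. These levels came from 487 to 945 counts in the Asxl2-/- and 128 to 489 counts in the control libraries. The log2 fold change was 1.48 (SE 0.246, edgeR adjusted p = 0.0440). After removal of the fitted effect of the file kind, log2 CPM averaged 4.23 ± 0.28 in Asxl2-/- and 2.73 ± 0.30 in control cells (SD, n = 3 each). Within the gene-count files alone the log2 difference was 1.96, and within the exon-count files 1.03.

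The call for Pcgf2 was close to the threshold. It was lost when Asxl2-/- replicate 1 (edgeR adjusted p = 0.136), Asxl2-/- replicate 3 (0.0896), control replicate 2 (0.0851) or control replicate 3 (0.172) was left out, and held without Asxl2-/- replicate 2 (0.0123) and without control replicate 1 (0.0398). Without control replicate 2 the log2 fold change was 1.02, and without Asxl2-/- replicate 2 it was 1.99. It was positive under each of the 20 alternatives tried, which ranged from 1.02 to 1.99. The B lymphoid marker sum given above separated the genotypes in the same direction as Pcgf2. Among the markers of other cells, the sum of the endothelial and stromal genes was 395, 220 and 219 CPM in Asxl2-/- replicates 1, 2 and 3 and 252, 127 and 171 CPM in control replicates 1, 2 and 3, so it was lowest in the library where Pcgf2 was lowest, while the groups overlapped. This was not particular to that list. In control replicate 2 the megakaryocyte sum was also lowest, at 158 CPM, and the myeloid sum was highest, at 6410 CPM. The B lymphoid sum was lowest in control replicate 3, at 39.9 CPM. Of the 7 endothelial and stromal genes, Pecam1 was at 66.0 to 101 CPM, Col1a1 at 14.2 to 130 CPM and Col1a2 at 18.4 to 153 CPM, while Cdh5, Kdr, Emcn and Cxcl12 were at 5.05 CPM or less in every library. Emcn was at 2.64 to 5.05 CPM in the Asxl2-/- and 0.799 to 2.57 CPM in the control libraries (log2 fold change 1.66, edgeR adjusted p = 0.0740), and it was the only gene of the 7 with an unadjusted p under 0.05. The part of these cells in the Pcgf2 difference was not tested.

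The exon-count files show where along Pcgf2 the difference lay. In Asxl2-/- replicate 2, 10 of the 13 exons were above both control libraries, namely exon 1 and exons 5 to 13, exons 2 and 3 were between the controls, and exon 4 was below both. The files list 3 Pcgf2 transcripts, which share exons 5 to 13 and differ in the 4 upstream exons. The 9 shared exons held 891 counts (16.7 CPM) in Asxl2-/- replicate 2 against 434 (8.33 CPM) and 358 (7.55 CPM) in control replicates 1 and 3. The 4 upstream exons held 54 counts (1.01 CPM) against 55 (1.06 CPM) and 27 (0.569 CPM). The shared exons were thus higher in the knockout library than in either control, and the upstream exons lay between the controls. The upstream share of the Pcgf2 counts was 5.71% (Wilson 95% interval 4.41 to 7.38) in Asxl2-/- replicate 2, 11.2% (8.74 to 14.4) in control replicate 1 and 7.01% (4.86 to 10.01) in control replicate 3. The interval of the knockout library lay below that of control replicate 1 and overlapped that of control replicate 3, and the controls differed between themselves by a similar amount. The Wilson intervals cover counting error only. Exon by exon values, here and for the other subunits below, rest on 1 knockout library and carry no test. Exons of 1 library are not independent, so their number adds no support to the difference of the whole gene. No exon of any of the 10 subunits overlapped an exon of another gene in the files.

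**Figure D2:**
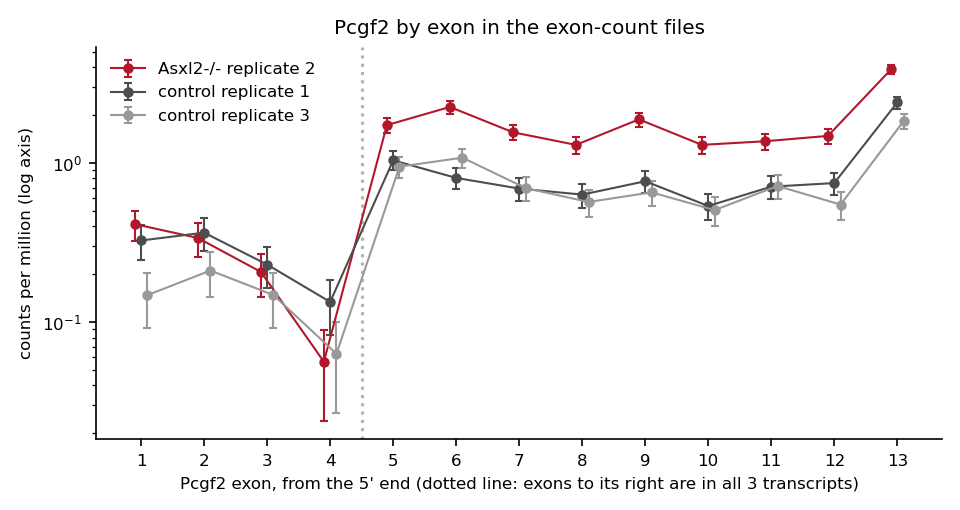
Level in CPM (y axis, log scale) for each of the 13 Pcgf2 exons (x axis, numbered from the 5' end) in the 3 exon-count libraries, with bars of 1 Poisson standard deviation of the count. From exon 5 on, Asxl2-/- replicate 2 lies above both controls at every exon, and in exons 1 to 4 it does so only at exon 1.

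Bmi1, the PCGF protein best known from stem cells, was at 69.3, 60.1 and 69.6 CPM in Asxl2-/- replicates 1, 2 and 3 and at 70.2, 75.3 and 74.5 CPM in the controls. Every control was above every knockout library, by little. The log2 fold change was -0.19 (SE 0.0827, edgeR adjusted p = 0.192), and it was -0.14 in the gene-count and -0.26 in the exon-count files. All 10 Bmi1 exons were below both controls in Asxl2-/- replicate 2. The difference did not pass the threshold, and its sign was opposite to that of Pcgf2. Calculated per length within each library, Bmi1 was 2.91, 2.59 and 3.10 times Pcgf2 in Asxl2-/- replicates 1, 2 and 3 and 5.73, 13.0 and 7.03 times in control replicates 1, 2 and 3. The ratio was lower in all 3 knockout libraries than in any control. The mean log2 ratio was lower by 1.49 (difference -1.49), an exact two-sided permutation p of 0.1, which is the smallest that 3 against 3 libraries allow. Within the gene-count files the difference was -2.11, within the exon-count files -1.29. Adjusted over the 2 ratios tested here (this one and Rnf2 to Ring1), the exact permutation p of each was 0.2. Neither ratio depends on the scaling between libraries, but the permutation takes no account of the kind of file.

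**Figure D3:**
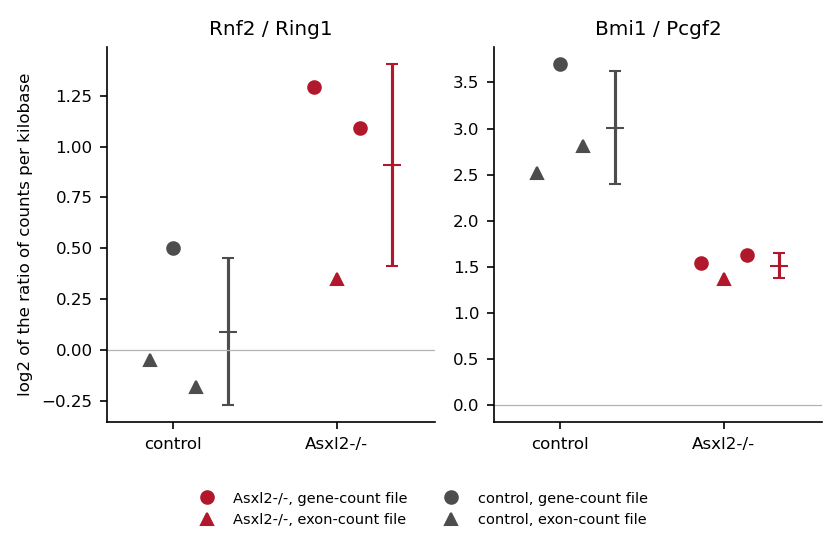
Log2 of the ratio of counts per kilobase (y axis) of Rnf2 to Ring1 and of Bmi1 to Pcgf2 in each library, circles for gene-count and triangles for exon-count files, with mean ± SD of 3 libraries. The Bmi1 to Pcgf2 ratio of the 3 Asxl2-/- libraries (2.59 to 3.10 in linear terms) lies below that of the 3 controls (5.73 to 13.0), whereas the Rnf2 to Ring1 ratios overlap.

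Pcgf5 and Pcgf6 belong to variant complexes, Pcgf6 together with E2f6, Mga, Max and L3mbtl2. Pcgf5 was at 45.0, 47.8 and 44.5 CPM in the Asxl2-/- and 44.4, 40.4 and 44.0 CPM in the control libraries. The knockout libraries were higher than every control, by small steps, and the log2 difference of 0.13 (SE 0.0798, edgeR adjusted p = 0.322) did not pass. Pcgf5 exon 1, of 93 bases, had 1 count in Asxl2-/- replicate 2 and 0 in both controls, whereas exons 2 to 9 had 221 or more in the knockout library, so the annotated first exon was all but unread in these cells. The limit that a count of 0 allows is 3 counts. Pcgf6 was at 36.5, 41.6 and 42.7 CPM in the Asxl2-/- and at 43.2, 36.9 and 49.0 CPM in the control libraries, with overlap, and its log2 fold change of -0.02 (SE 0.121) took the other sign with library size alone as scaling.

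**Figure D4:**
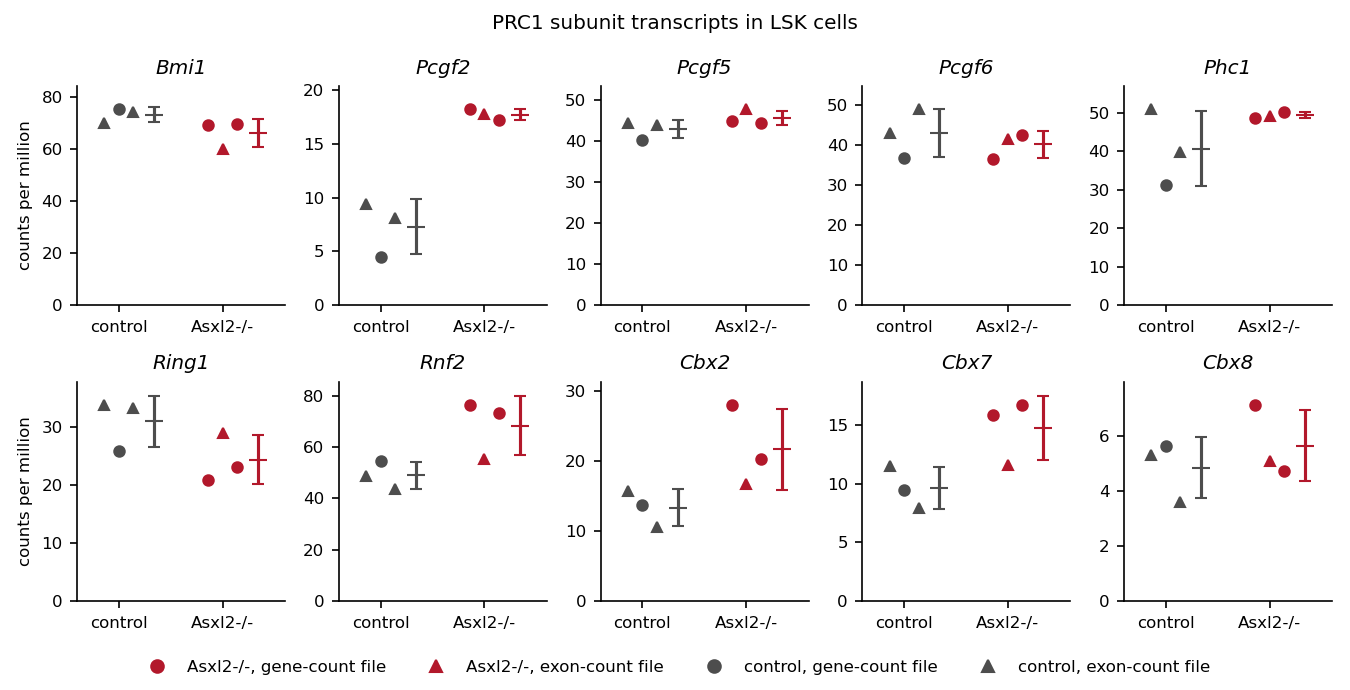
Level in CPM (y axis, from 0, a separate scale for each gene) of the 10 PRC1 subunits in the 3 control and 3 Asxl2-/- libraries, circles for gene-count and triangles for exon-count files, with the mean ± SD over all 3 libraries at the right of each group. The Pcgf2 values of the Asxl2-/- libraries (17.2 to 18.2 CPM) stand clear of the controls (4.45 to 9.38 CPM), and the other subunits differ less.

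Rnf2 (Ring1B) and Ring1 (Ring1A) are the alternative catalytic subunits. Rnf2 was at 76.2, 55.1 and 73.3 CPM in Asxl2-/- replicates 1, 2 and 3 and at 48.5, 54.4 and 43.7 CPM in control replicates 1, 2 and 3. Every Asxl2-/- library was above every control, with Asxl2-/- replicate 2 only just above control replicate 2, a library of the other file kind. The log2 fold change was 0.36 (SE 0.0949, edgeR adjusted p = 0.0915), with 0.44 in the gene-count and 0.27 in the exon-count files, and DESeq2 gave an adjusted p of 0.0455. All 7 Rnf2 exons were above both controls in Asxl2-/- replicate 2. Ring1 was at 20.9, 29.0 and 23.1 CPM in the Asxl2-/- and at 33.7, 25.8 and 33.3 CPM in the control libraries. The groups overlapped when all libraries were set side by side but not within either kind of file, and the log2 fold change was -0.22 (SE 0.0955, edgeR adjusted p = 0.198). All 7 Ring1 exons were below both controls in Asxl2-/- replicate 2. Neither ligase gene passed the threshold. Per length, Rnf2 stood to Ring1 as 2.45, 1.28 and 2.13 to 1 in the Asxl2-/- and as 0.968, 1.42 and 0.882 to 1 in the control libraries. The mean log2 ratio was higher by 0.82 in the knockout libraries, with overlap (exact two-sided permutation p = 0.2). It was higher by 0.69 within the gene-count and by 0.47 within the exon-count files. Both values are smaller than the pooled 0.82, which mixes the kinds of file and takes no account of their uneven split. A value of 0.33 was obtained when the longest exon stood for the gene in the exon-count files. There the exon counts were divided by the length of the whole transcript, so that value is not per length and cannot be set beside the others.

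The CBX proteins anchor canonical PRC1 to chromatin, and Cbx7 is the form linked to self-renewal of blood stem cells, while Cbx2 and Cbx8 are linked to their differentiation. Cbx2 was at 27.9, 16.7 and 20.2 CPM in the Asxl2-/- and at 15.7, 13.7 and 10.5 CPM in the control libraries, without overlap. Its log2 fold change was 0.58 (SE 0.235, edgeR adjusted p = 0.177), and all 5 of its exons were above both controls in Asxl2-/- replicate 2. Cbx7 was at 15.9, 11.6 and 16.7 CPM in the Asxl2-/- and at 11.5, 9.48 and 7.97 CPM in the control libraries. The knockout libraries were again above every control, though Asxl2-/- replicate 2 and control replicate 1 were nearly the same, and the log2 fold change was 0.51 (SE 0.213, edgeR adjusted p = 0.183). Cbx8, which lies on the same chromosome as Cbx2 (chr11:119038436-119040913 and chr11:119023029-119031270), was at 7.13, 5.11 and 4.72 CPM in the Asxl2-/- and at 5.32, 5.66 and 3.59 CPM in the control libraries. Those values overlapped, and the log2 fold change was 0.13 (SE 0.258, edgeR adjusted p = 0.771).

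By the largest difference in exon shares between any pair of exon-count libraries, Cbx7, Pcgf2 (10.6%) and Cbx8 were the most uneven of the 10 subunits, and for Cbx7 and Cbx8 that largest difference was between the controls. The summed difference in exon shares was 10.9% of the Cbx7 counts between control replicates 1 and 3, 4.05% between Asxl2-/- replicate 2 and control replicate 1, and 9.93% between Asxl2-/- replicate 2 and control replicate 3. Exons 1 to 4 of Cbx7 held 40, 35, 39 and 40 counts in control replicate 1 but 15, 11, 14 and 16 in control replicate 3, while exon 6 held 63 and 58. In Asxl2-/- replicate 2 the first 4 exons held 40, 31, 41 and 38 counts and exon 6 held 56. For Cbx8 the difference in shares was 6.77% between the controls and 5.51% and 3.24% between the knockout library and controls 1 and 3. For both genes the knockout library thus differed less from either control than the controls did from each other.

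Phc1, the polyhomeotic subunit, whose SAM domain links PRC1 complexes to each other, was at 48.7, 49.1 and 50.1 CPM in the Asxl2-/- libraries and at 50.8, 31.3 and 39.7 CPM in the controls. The knockout values were close together and fell inside the spread of the controls, whose highest library exceeded them all. The log2 fold change was 0.38 (SE 0.166, edgeR adjusted p = 0.196), with 0.64 in the gene-count and 0.13 in the exon-count files. Of its 15 exons, 5 were above both controls in Asxl2-/- replicate 2, 2 below both and 8 between.

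Levels of different subunits were compared as counts per kilobase of transcript, scaled as CPM, within 1 kind of file at a time. In the gene-count files the order was Pcgf5 (28.7 ± 1.7), Rnf2 (22.4 ± 3.9), Bmi1 (19.9 ± 0.95), Pcgf6 (18.4 ± 1.7), Ring1 (11.4 ± 1.2), Phc1 (11.1 ± 2.7), Cbx2 (5.51 ± 1.9), Cbx7 (4.85 ± 1.4), Pcgf2 (4.82 ± 2.8) and Cbx8 (4.19 ± 0.87; SD over 3 libraries of both genotypes). Pcgf5 stood 6.84 times above Cbx8. The library ranges of neighbours in this order overlapped except between Pcgf5 and Rnf2, between Pcgf6 and Ring1 and between Phc1 and Cbx2, so the pooled ranges of Cbx2, Cbx7, Pcgf2 and Cbx8 were not separated. The position of Pcgf2 among them differed by genotype, since it was at 6.61 and 6.24 in Asxl2-/- replicates 1 and 3, above Cbx7 and Cbx8 in both, and at 1.62 in control replicate 2, below Cbx2 (3.66), Cbx7 (3.28) and Cbx8 (4.06). In the exon-count files the same 4 genes were again the lowest, at 3.35 to 4.27, and Pcgf5 again the highest, at 30.1 ± 1.4. Among the 14145 genes, the level of Pcgf5 in the gene-count files was at percentile 76.8, that of Bmi1 at 67.5 and that of Pcgf2, averaged over both genotypes, at 34.9.

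Expressed as a share of its family per length, Pcgf2 took 7.01, 6.62 and 6.52% of the 6 PCGF genes in Asxl2-/- replicates 1, 2 and 3 and 3.54, 1.83 and 2.83% in the controls. Even in the knockout libraries it was therefore the smallest of the PCGF genes, with Pcgf3 at 9.27 to 11.5% and Pcgf1 at 9.73 to 14.0% there. Bmi1 took 17.2 to 20.4% and 19.9 to 23.8%, and Pcgf5 took 30.8 to 32.5% and 28.0 to 30.5%. Rnf2 accounted for 71.0, 56.1 and 68.1% of the RING pair in the Asxl2-/- and for 49.2, 58.6 and 46.9% in the control libraries. These shares mix the kinds of file. Within the gene-count files they were 71.0 and 68.1% against 58.6%, and within the exon-count files 56.1% against 49.2 and 46.9%. Of the summed level of Cbx2, Cbx6, Cbx7 and Cbx8, the largest share belonged to Cbx6, with 54.2 to 55.3% in the Asxl2-/- and 50.2 to 56.0% in the control libraries, while Cbx2, Cbx7 and Cbx8 had between 10.4 and 18.6% each. Phc1 held 30.8 to 34.7% of the PHC genes in the Asxl2-/- and 19.1 to 36.7% in the control libraries.

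**Figure D5:**
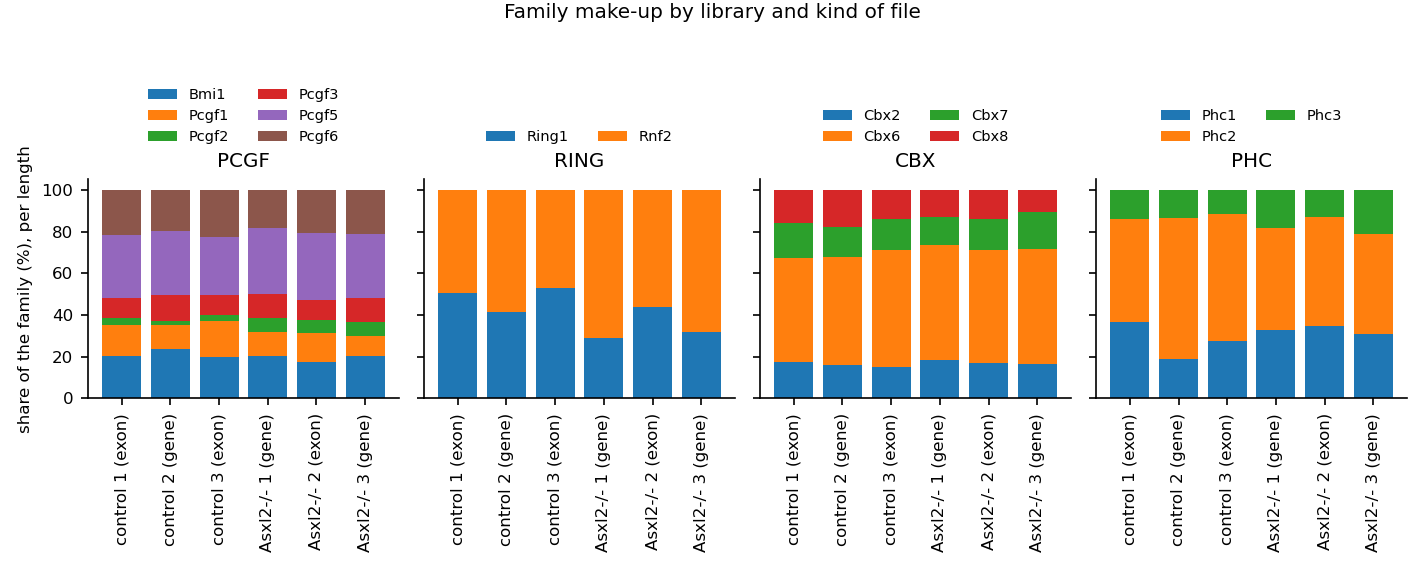
Share of each gene in the summed level per length of its family (y axis, %), for the 6 PCGF, 2 RING, 4 CBX and 3 PHC genes in each library, controls first, with the kind of file in the label. Pcgf2 is the thinnest PCGF band in every library, at 1.83 to 3.54% in controls and 6.52 to 7.01% in Asxl2-/- libraries.

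The rest of the PRC1 machinery was examined through 30 further genes, none of which passed the threshold in the edgeR fit. At an unadjusted p under 0.05, 4 were higher and 5 lower, DESeq2 called 8 and limma-voom 0, beside 27.7% of all genes in either direction at that unadjusted p, 17.1% called by DESeq2 and 3.04% by limma-voom, and the median log2 fold change was -0.06. The relatives of the 10 subunits gave small values. Among the PCGF genes these were -0.13 for Pcgf1 and -0.07 for Pcgf3, while Cbx6, a further chromobox gene, had 0.56 (SE 0.142, edgeR adjusted p = 0.0867). Cbx6 was at 119, 78.3 and 98.4 CPM in the Asxl2-/- and at 65.7, 64.4 and 56.3 CPM in the control libraries, without overlap. Phc2, the most abundant polyhomeotic gene, had -0.31 (SE 0.146) and Phc3 0.25 (SE 0.148). Scmh1, a SAM domain protein associated with canonical PRC1, had the smallest p of the 30, with 40.8, 46.1 and 38.7 CPM against 32.3, 29.1 and 26.9 CPM and a log2 difference of 0.55 (SE 0.113, edgeR adjusted p = 0.0648). Scml2 was at -0.01 (SE 0.248).

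Components of the variant complexes gave no call either. Rybp and Yaf2, which take the place of the CBX protein in variant PRC1, and Kdm2b had log2 fold changes of -0.08, 0.03 and 0.11 with standard errors of 0.0755 to 0.120. L3mbtl2, a partner of Pcgf6, had -0.36 (SE 0.133, edgeR adjusted p = 0.151). Bcorl1, a corepressor related to the Pcgf1 partner Bcor, had 0.51 (edgeR adjusted p = 0.0761), and Csnk2b, the regulatory subunit of casein kinase 2 found in Pcgf5 complexes, had -0.46 (edgeR adjusted p = 0.0741). Auts2, which joins Pcgf3 and Pcgf5 complexes, had 1.47 (SE 0.360, edgeR adjusted p = 0.0801) at a level of 1.13 to 1.95 CPM in the Asxl2-/- and 0.521 to 0.591 CPM in the control libraries. Without control replicate 1, 4 of the 30 genes passed (Scmh1, Bcorl1, Max and Csnk2b), in a fit where 1312 of all 14060 genes tested passed. Without any other library none of the 30 did.

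The genes for removal of H2A ubiquitin, the reverse of the PRC1 reaction, comprised Bap1, Asxl1, Asxl2, Usp16, Mysm1, Usp21, Usp3, Usp12 and Usp46. None of the 9 passed the threshold in edgeR, and 0 had an unadjusted p under 0.05, 0 were called by DESeq2 and 0 by limma-voom. Over all genes, the shares in that order were 2.34%, 27.7%, 17.1% and 3.04%, so for a list this short the absence of calls says little. Their log2 fold changes ran from -0.30 to 0.18. The catalytic partner of ASXL proteins, Bap1, had -0.14 (SE 0.0780, edgeR adjusted p = 0.277), Usp16 -0.28 (SE 0.120, edgeR adjusted p = 0.197) and Usp46 -0.30 (SE 0.178, edgeR adjusted p = 0.306). Counted over all exons, Asxl2 itself had 0.11 (SE 0.0954, edgeR adjusted p = 0.469), since the deletion removes reads of exon 11 and leaves those of the other exons.

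Genes known as targets of PRC1 in blood stem cells gave larger differences. Of 10 on the list, 7 had enough counts, and 3 of them rose: Ebf1 and Pax5, the transcription factors of early B cells, and Hoxa10, a homeobox factor of progenitors. Over all genes tested, 2.04% passed the threshold as higher. Ebf1 was at 18.5, 18.3 and 26.2 CPM in the Asxl2-/- and at 5.16, 4.55 and 3.46 CPM in the control libraries, which makes a log2 difference of 2.18 (SE 0.232, edgeR adjusted p = 0.0183). Hoxa10 was at 20.9, 13.2 and 16.6 CPM against 4.20, 3.65 and 2.70 CPM, a log2 difference of 2.14 (SE 0.243, edgeR adjusted p = 0.0196). Pax5 was at 7.10, 6.18 and 5.75 CPM against 2.46, 1.49 and 1.81 CPM, a log2 difference of 1.80 (SE 0.260, edgeR adjusted p = 0.0322). No control library reached the level of any knockout library for these genes. Ebf1 and Pax5 are also on the B lymphoid marker list, whose sum moved with them, and that part was not tested. The neighbouring homeobox genes had log2 fold changes of 1.14 (Hoxa5, edgeR adjusted p = 0.123), 1.07 (Hoxa7, 0.0754) and 0.97 (Hoxa9, 0.103). Thus 6 of the 7 were higher at an unadjusted p under 0.05, against 15.0% of all genes, with a list median of 1.14. The list was chosen with earlier results of these data known. Its genes are also not independent, since Ebf1 and Pax5 are B lymphoid markers and the Hoxa genes are neighbours. The share is therefore a description and no test of PRC1 targets as a set. The number past the threshold was 0 without Asxl2-/- replicate 1, control replicate 2 or control replicate 3, 1 without Asxl2-/- replicate 3 and 6 without control replicate 1. Over all genes, the same fits called 16, 124, 9, 96 and 1312 in that order.

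The locus for which PRC1 repression in blood is best known, Cdkn2a and Cdkn2b, showed no such difference. Cdkn2a was counted 1, 77 and 9 times in the Asxl2-/- libraries and 15, 23 and 43 times in the controls, and its log2 fold change of -0.18 carried an SE of 0.953. The libraries of 1 genotype differed more than the genotypes did, so a change of moderate size was not detectable. Cdkn2b had 10 counts or fewer in every library, Hoxa11 had 3 or fewer, and Hoxa13 had 0 in all 6, and these 3 genes were not tested. A count of 0 allows up to 3 counts per library.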

How the data were processed

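The authors deposited raw counts of reads, unnormalised whole numbers on build mm10, 1 file per sample, with RefSeq transcripts as features. The submitters' processing notes name STAR, featureCounts and DESeq2, whose versions and roles are not given in the sources used here. Per the study's methods the libraries were poly(A)-selected and unstranded, from 3 biological replicates per genotype. The 6 files comprised 3 gene-count files (33068 transcript lines) and 3 exon-count files (summed over the exons of the longest transcript). Here the genotypes were compared in edgeR 4.0.16 (R 4.3.3, quasi-likelihood F-test): TMM scaling, filterByExpr, file kind plus genotype as the design (3 residual degrees of freedom), two-sided, Benjamini-Hochberg over all 14145 genes, threshold 0.05. Each standard error is the log2 fold change over the square root of F. CPM are counts over the TMM-scaled library size. The means with the file effect removed use a prior count of 2, and their SDs are somewhat too small. Ratios were compared by exact permutation over the libraries, without regard to the kind of file (Python 3.11.15). The alternatives were DESeq2 1.42.0, limma-voom (limma 3.58.1), other scalings and filters, no file covariate, the replicate number as a block, other ways to represent a gene, the gene-count or exon-count files alone, and the omission of each library in turn. The fit was tested on simulated data.

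The members, lists and tests were chosen with earlier results of these data known. Named genes were the 10 subunits, Asxl2, 11 further family members, and, from the rest of the 3 lists, each gene past the threshold and the 3 with the smallest p. Other homeobox genes, Cdkn2a, Cdkn2b, the marker genes and the Pcgf5 first exon were named after their values were seen. A gene of the list of further subunits is not reported here. Replicate numbers did not pair the libraries. RefSeq promoters (GRCm38.p6) matched 9 of 10 subunits. Totals of 25528540 to 55032075 counts per library leave Cbx8 at 134 to 277 counts, and Pcgf2 at 128 counts in control replicate 2.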

Additional observations from a re-analysis of the deposited data

How the results depend on the processing

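Over all genes, 331 passed the threshold, against 2329 with DESeq2, 161 with library size only and 9 to 1312 when a library was left out (fewest without control replicate 3, most without control replicate 1). Of the 10 subunits 1 passed, against 2 with DESeq2 (Pcgf2 and Rnf2), 0 with library size only (Pcgf2 adjusted p = 0.0636), 0 without the file covariate (0.0506), 0 with the longest exon (0.0611) and 0 to 1 when a library was left out. Pcgf2 passed in 10 of 18 tested alternatives. The other PRC1 genes gave 0, against 8 with DESeq2 and 0 to 4 when a library was left out. The PRC1 targets gave 3, against 6 with DESeq2 and 0 to 6 when a library was left out. Directions of 8 subunits held under all 20 alternatives. Pcgf6 turned to 0.0756 with library size only and 0.0792 in the gene-count files alone, and spanned -0.14 to 0.1 when a library was left out, and Cbx8 spanned -0.0029 to 0.26. The Rnf2 to Ring1 log2 ratio differed by 0.33 with the longest exon, where exon counts were divided by whole-transcript length, so this value is not comparable. The Bmi1 to Pcgf2 ratio differed by -2.11 in the gene-count files. The cause of the other shifts was not tested. No scaling moved the median of all genes by more than 0.098.

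Same-numbered libraries did not deviate together (r = 0.294, -0.00766 and -0.00277), and not every library correlated best with its own number, so they share only a number. The replicate block with file kind, which leaves 1 residual degree of freedom, called 5179 genes, 5 subunits (Pcgf2, Rnf2, Cbx2, Cbx7 and Phc1), 13 of the other PRC1 genes, 2 H2A deubiquitination genes and 6 targets, and the block without file kind called 380 genes and 0 subunits. Over same-numbered pairs, the exact paired permutation p was 0.25 for the Bmi1 to Pcgf2 ratio, the smallest that 3 pairs allow, and 0.5 for the Rnf2 to Ring1 ratio.

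Of the 10 subunits, Cbx8, at 134 to 277 counts, and Pcgf2 in control replicate 2, at 128 counts, carry the least depth. The Pcgf2 upstream exons together held only 27 to 55 counts. With 3 libraries per group, unevenly split over the kinds of file, a call can rest on 1 library.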
